A study of Mus musculus with 22 samples.

Results

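Matrix metalloproteinases (MMPs) are zinc proteases that cut collagens and other matrix proteins outside the cell, and the tissue inhibitors of metalloproteinases (TIMPs) block them by binding the active site. The 10 family members described here are Mmp2, Mmp3, Mmp9, Mmp11, Mmp13, Mmp14, Mmp19, Timp1, Timp2 and Timp3, taken by symbol from a table of counts over 30170 mouse genes. All 10 are in the table, and 8 of them passed a filter on low counts that kept 14520 genes. Mmp3 and Mmp13 did not pass it. The filter needs counts in only part of the libraries, so the 8 genes that passed are not a sample of the family.

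RNA was sequenced from the mouse mesenchymal line C3H 10T1/2, whose cells can become adipocytes. The cells carried the DNA methyltransferase DNMT3A as WT, as the W330R mutant or with both substitutions, W330R-R181E. W330 lies in the PWWP domain, the part of DNMT3A that binds methylated histone H3. For WT and W330R there are undifferentiated cells, grown in serum medium, and cells at days 2, 4 and 6 of adipocyte differentiation, while the double mutant was sequenced at days 2, 4 and 6. Differentiation started in serum medium with isobutylmethylxanthine, dexamethasone, insulin and troglitazone, which was exchanged after 2 days for serum medium with insulin. That gives 22 libraries in 11 conditions of 2 libraries each. The labels do not say how the alleles were made, whether a line is 1 clone, or whether the replicates are separate cultures, so that p-values measure the spread between these libraries, which may be technical. The columns of the 6 double mutant libraries are named R181A where the labels say R181E, and they were assigned by the genotype, day and replicate that each name gives.

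MMPs are made as inactive proenzymes. MMP14 sits in the cell membrane, cuts fibrillar collagen and activates proMMP2, and TIMP2 forms part of the complex in which that activation takes place, although free TIMP2 inhibits both enzymes. In adipose tissue, remodelling of the collagen around growing fat cells depends on MMP14. MMP2 and MMP9 are the gelatinases, MMP3 and MMP13 are a stromelysin and a collagenase that cells make on AP-1 signals, and TIMP3 is the inhibitor that stays bound to the matrix.

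Promoter sequences are shown for 4 members, because the first pair was hardly transcribed in any library while the second pair rose together in W330R cells. RefSeq promoter sequences on GRCm38.p6, from 250 bases before to 50 bases after the transcription start, were found for 7 of the 10 members, those of Mmp2, Mmp9 and Mmp19 not being among them. The count table was made on GRCm39, so that these coordinates hold for the sequences alone. Each sequence covers the 150 bases just before the start, on the strand of the gene and outside its first exon. Capitals mark TGANTCA, the AP-1 motif, in Mmp3 (chr9:7445672-7445821, plus strand) and Mmp13 (chr9:7272364-7272513, plus strand). Capitals mark the dinucleotide CG, which DNMT3A methylates, in Mmp14 (chr14:54431448-54431597, plus strand) and Timp2 (chr11:118355412-118355561, minus strand).
Mmp3: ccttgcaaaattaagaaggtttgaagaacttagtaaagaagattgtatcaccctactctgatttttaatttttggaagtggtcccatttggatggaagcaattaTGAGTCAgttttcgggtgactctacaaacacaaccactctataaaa
Mmp13: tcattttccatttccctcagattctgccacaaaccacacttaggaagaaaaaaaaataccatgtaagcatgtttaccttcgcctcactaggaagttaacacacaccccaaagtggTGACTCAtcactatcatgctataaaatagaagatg
Mmp14: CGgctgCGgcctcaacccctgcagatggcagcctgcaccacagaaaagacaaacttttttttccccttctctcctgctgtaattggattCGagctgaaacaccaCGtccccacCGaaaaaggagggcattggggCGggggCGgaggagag
Timp2: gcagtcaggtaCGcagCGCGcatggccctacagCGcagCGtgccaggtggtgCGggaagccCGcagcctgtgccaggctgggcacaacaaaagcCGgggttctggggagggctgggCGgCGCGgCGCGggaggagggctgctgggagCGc

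Among the 7 promoters of 300 bases, TGANTCA, whose letters read the same on both strands, was present in those of Mmp3 and Mmp13, and 7.81% of 32851 mouse promoters hold it. The dinucleotide CG occurred 1 time each in Mmp3 and Mmp13, against 10 times in Mmp14, 8 in Timp1, 19 in Mmp11, 24 in Timp3 and 25 in Timp2. The median mouse promoter holds 7, and 14.1% hold at most 1. These are matches of letters, and neither methylation nor binding of a factor was measured in these libraries.

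The libraries held 8859501 to 47453908 counts on genes, with a median of 19355792, and 3 counts corresponded to 0.0583 to 0.347 CPM (counts scaled to a common library size). Of the adipocyte markers, Plin1 and Cidec were at 0 in every undifferentiated library, and the 6 adipocyte genes (Adipoq, Plin1, Fabp4, Pparg, Cidec, Lpl) summed to 40.2 to 46.6 CPM there. At day 6 that sum was 4584 to 9134 CPM in WT, 1402 to 1606 in W330R and 1681 to 2991 in W330R-R181E. The fibroblast genes (Pdgfra, Pdgfrb, Col1a1, Col1a2, Thy1, Vim) summed to 16504 to 20499 CPM in undifferentiated cells and were present in all libraries. The labelled cell type and differentiation are thus visible in the RNA. Undifferentiated libraries carry another pattern of column names than those of days 2 to 6, and a batch cannot be told apart from the change between undifferentiated cells and day 2.

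Levels between genes were compared as CPM per kilobase of exon. Timp2 was the most abundant member in all 11 conditions, at a mean of 189 to 621 CPM per kilobase. Timp3, Mmp2 and Mmp14 were at 44.9 to 247 CPM per kilobase over the 11 conditions and came next at days 2, 4 and 6. In undifferentiated cells Timp1 stood above Mmp14 in WT (129 against 69.3 CPM per kilobase) and above Timp3 in W330R (84.2 against 63.4 CPM per kilobase). Timp1, Mmp11 and Mmp19 were between 4.46 and 129 CPM per kilobase, and Mmp9 did not exceed 0.637. In WT cells at day 6 the order of the means was Timp2 at 356, Timp3 at 160, Mmp2 at 119, Mmp14 at 87.0, Timp1 at 27.8, Mmp19 at 27.3, Mmp11 at 18.4 and Mmp9 at 0.346 CPM per kilobase. Timp3 in that order was set by 1 of 2 libraries, as described further on.

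**Figure D1:**
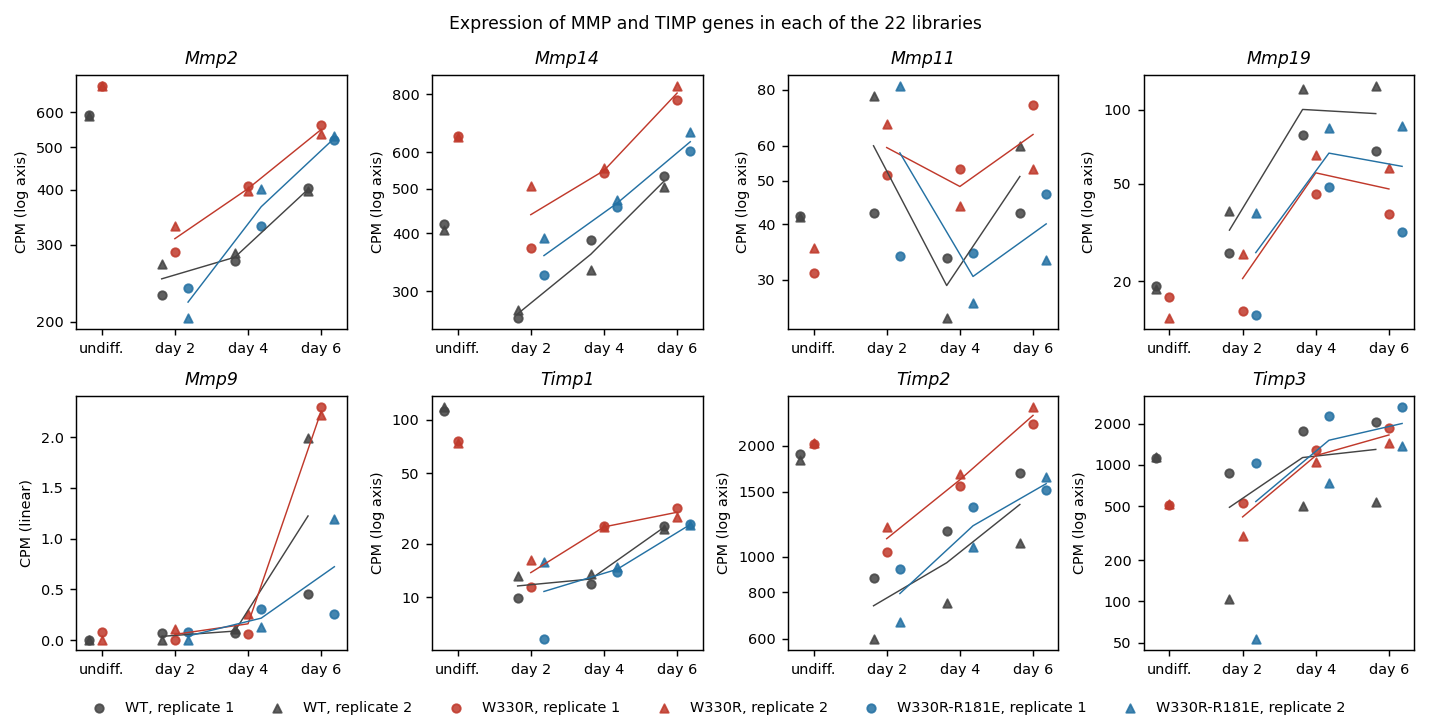
CPM of the 8 members that passed the filter in each of the 22 libraries, by stage on the horizontal axis, with circles for replicate 1, triangles for replicate 2 and lines through the means of days 2, 4 and 6 (log vertical axes, except a linear one for Mmp9). At every stage shown the 2 W330R libraries (red) of Mmp14 lie above the 2 WT libraries (grey), from 373 and 506 against 263 and 273 CPM at day 2 to 777 and 834 against 534 and 504 CPM at day 6.

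Mmp3 and Mmp13 were next to silent. Mmp3, stromelysin 1, had at most 2 counts in any library, 8 counts over all 22 libraries and 0 counts in 15 of them. Mmp13, the main interstitial collagenase of mice, also had at most 2 counts, 10 in total and 0 in 14 libraries. Every value of both genes lies at or under the limit of 3 counts that the depth can show, which corresponds to at most 0.347 CPM, and no fold change was computed. In Mmp3, 14.6% of the stretches of 31 bases also occur in Mmp10 or in 2 annotated copies, so that reads could be shared, but Mmp10 was at 0 in every library.

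Mmp9, gelatinase B, was detected mainly at day 6. It had 8 and 41 counts in the WT libraries of day 6 (0.454 and 1.99 CPM), 118 and 54 in W330R (2.29 and 2.22 CPM) and 11 and 11 in W330R-R181E (0.256 and 1.19 CPM). In the other 16 libraries it had at most 7 counts, and in 14 of the 22 at most 3. The ratio of pooled CPM between day 6 and day 2 was 43.1 in WT (49 against 1 counts), 34.0 in W330R (172 against 3) and 13.6 in W330R-R181E (22 against 1). The exact 95% intervals, which cover counting error only, were 7.37 to 1735, 11.4 to 167 and 2.20 to 563. They leave out the spread between replicates. Mmp9 passed the filter on low counts through its day 6 libraries alone, so that these ratios describe the values and are no test of a rise. The WT and W330R-R181E values of day 6 overlapped, and both W330R libraries lay above them. Of the neutrophil markers, cells that store MMP9, S100a9 and Ly6g were at 0 in most conditions and 2 of the 6 passed the filter. The 6 markers summed to 0.440 to 10.7 CPM over all libraries, with 5.66 to 8.17 CPM in WT at day 2 and 1.97 to 4.28 CPM at day 6. Their part in the Mmp9 values was not tested.

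The first question of the design is how W330R changes expression while cells differentiate. Averaged over days 2, 4 and 6, Mmp2, Mmp14, Timp1 and Timp2 were higher and Mmp19 was lower in W330R than in WT. These are 5 of the 8 members tested, and 29% of all 14520 genes were called in the same comparison (edgeR quasi-likelihood test, Benjamini-Hochberg adjusted p under 0.05), 14.3% of them higher and 14.8% lower. The median log2 fold change was 0.46 over the 8 members and 0.42 over the 7 without Mmp9, against 0.02 over all genes tested. The p-values over days 2 to 6 count the libraries of the 3 days as independent. Libraries with the same replicate number shared part of their departures from the condition mean, so that these p-values may be too small.

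Mmp14 (membrane type 1 MMP, on chromosome 14) differed most clearly. Its level was 263 and 273 CPM in the WT libraries of day 2, 388 and 333 at day 4, and 534 and 504 at day 6. In W330R it was 373 and 506 CPM at day 2, 539 and 555 at day 4, and 777 and 834 at day 6. Both W330R libraries lay above both WT libraries on each day, and the log2 fold change over the 3 days was 0.65 ± 0.08 (SE, adjusted p = 0.000122). The difference was called on each day alone, at 0.71, 0.60 and 0.63 on the log2 scale for days 2, 4 and 6 (adjusted p = 0.0178, 0.0282 and 0.0171), where 3.06%, 6.14% and 7.54% of all genes were called. Each of these single-day calls was lost in 3 of the 22 refits that left out 1 library, namely without either library of WT day 2 or replicate 2 of W330R day 2 for day 2, without replicate 2 of WT day 4 or either library of W330R day 4 for day 4, and without replicate 2 of WT day 6 or either library of W330R day 6 for day 6. It was there before differentiation as well, with 419.5 and 406 CPM in WT and 651 and 646 in W330R undifferentiated cells (log2 fold change 0.65 ± 0.14, adjusted p = 0.0390). In the fit of all 11 conditions, Mmp14 was the 1 member called in undifferentiated cells, where 1.75% of all genes were called. That call was lost in 10 of the 22 refits, without any undifferentiated library, either library of W330R day 4 or day 6, or either library of W330R-R181E day 4 (log2 fold change 0.63 to 0.67, largest adjusted p = 0.284), and no member was called there without the filter on low counts. With only the undifferentiated libraries in the fit, more members were called, as described further on.

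Timp2, on chromosome 11, was higher in W330R as well. In WT it stood at 873 and 599 CPM at day 2, 1177 and 749.6 at day 4, and 1684 and 1089 at day 6. In W330R it stood at 1032 and 1207 CPM at day 2, 1556 and 1678 at day 4, and 2292 and 2546 at day 6. The groups did not overlap on any of the 3 days, and the log2 fold change was 0.72 ± 0.15 (adjusted p = 0.00263). In WT, replicate 1 was 1.46, 1.57 and 1.55 times replicate 2 at days 2, 4 and 6, so that the 3 days were not fully separate. On single days the differences of 0.61, 0.75 and 0.80 did not pass the threshold (adjusted p = 0.224, 0.0963 and 0.0732). In undifferentiated cells, 1899 and 1829 CPM in WT and 2022 and 2037 in W330R gave a log2 fold change of 0.12, with a 95% interval from -0.42 to 0.67.

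Mmp2, gelatinase A, on chromosome 8, is the protease that MMP14 and TIMP2 activate together. Its level in WT was 231 and 271 CPM at day 2, 275 and 287 at day 4, and 404 and 398 at day 6. The W330R libraries had 288 and 331 CPM at day 2, 408 and 397 at day 4, and 561 and 536 at day 6, above both WT libraries on each day. The log2 fold change over the 3 days was 0.42 ± 0.07 (adjusted p = 0.000865). It was called on day 4 (0.52, adjusted p = 0.0309) and day 6 (0.45, adjusted p = 0.0438), but not on day 2 (0.30, adjusted p = 0.218) or in undifferentiated cells (592 and 588 against 688 and 688 CPM, adjusted p = 0.538). The day 4 call was lost in 6 of the 22 refits, without either library of undifferentiated WT, WT day 4 or W330R day 4 (largest adjusted p = 0.208). The day 6 call was lost in 12, without any undifferentiated library or either library of WT or W330R at day 4 or day 6 (largest adjusted p = 0.302). With only the conditions of the contrast in the fit, no member was called on a single day.

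Both libraries of one genotype lay on the same side of both libraries of the other on all 3 days for Mmp2, Mmp14 and Timp2 (W330R higher) and for Mmp19 (W330R lower). Over all genes tested, 11.2% were higher and 9.5% were lower in W330R by that count. Mmp2, Mmp14 and Timp2 also varied together over the 18 libraries of days 2 to 6. Pearson's r of log2 CPM was 0.90 between Mmp2 and Mmp14, 0.90 between Mmp14 and Timp2, and 0.85 between Mmp2 and Timp2. Timp1 had an r of 0.84 with Mmp2, 0.85 with Mmp14 and 0.71 with Timp2. The libraries share stage and genotype differences, so that these r values only describe the set.

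Mmp19, a secreted MMP, on chromosome 10, was the 1 member lower in W330R. WT libraries had 26.0 and 38.7 CPM at day 2, 78.5 and 122 at day 4, and 68.0 and 125 at day 6. W330R libraries had 15.2 and 25.9 CPM at day 2, 45.4 and 65.2 at day 4, and 37.5 and 57.6 at day 6, all below the WT libraries of the same day. The log2 fold change was -0.84 ± 0.30 (adjusted p = 0.0452), close to the threshold, and no single day passed it (adjusted p = 0.255 to 0.554). Of the exon bases of Mmp19, 28.3% overlap genes on the opposite strand, among them Tmem198b, which the table lists at 22.1 to 62.2 CPM. Whether counting used strand is not given in the sources used here, so that reads of this overlap cannot be told apart.

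Timp1, on the X chromosome, inhibits most soluble MMPs. WT had 9.89 and 13.2 CPM at day 2, 11.8 and 13.5 at day 4, and 25.2 and 24.3 at day 6. W330R had 11.4 and 16.1 CPM at day 2, 25.0 and 24.7 at day 4, and 31.8 and 28.3 at day 6. The groups overlapped at day 2 and were apart at days 4 and 6, and the log2 fold change over the 3 days was 0.50 ± 0.17 (adjusted p = 0.0400). No single day passed, the nearest being day 4 with 0.97 (adjusted p = 0.0680). In undifferentiated cells the W330R libraries were below those of WT, at 75.8 and 73.8 against 112 and 117 CPM, and that difference did not pass (log2 fold change -0.62, 95% interval -1.23 to 0.00, adjusted p = 0.407).

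Averaged over days 2 to 6, the calls of Mmp2, Mmp14 and Timp2 held when any 1 of the 22 libraries was left out. That of Mmp19 was lost without any undifferentiated library, without replicate 2 of WT day 2, day 4 or day 6, without replicate 1 of W330R day 2, or without either library of W330R day 4 or day 6 (log2 fold change -0.99 to -0.68 over all 22 refits, largest adjusted p = 0.144). That of Timp1 was lost without any undifferentiated library, replicate 1 of WT day 2, either library of WT day 4 or day 6, replicate 2 of W330R day 2, either library of W330R day 4 or day 6, or replicate 2 of W330R-R181E day 4 (log2 fold change 0.41 to 0.58, largest adjusted p = 0.120).

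Mmp11, Mmp9 and Timp3 were not called between W330R and WT. Mmp11, stromelysin 3, which unlike most MMPs leaves the cell as an active enzyme, ranged from 24.7 to 77.5 CPM over the 6 WT libraries of days 2 to 6 and from 43.9 to 73.9 CPM over the 6 of W330R. Its log2 fold change was 0.35 with a 95% interval from -0.11 to 0.80 (adjusted p = 0.239). For Mmp9 the interval ran from -0.87 to 2.66 (adjusted p = 0.450), and for Timp3 from -1.28 to 1.39 (adjusted p = 0.971), so that a 2-fold difference of Timp3 in either direction lies inside its interval.

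**Figure D2:**
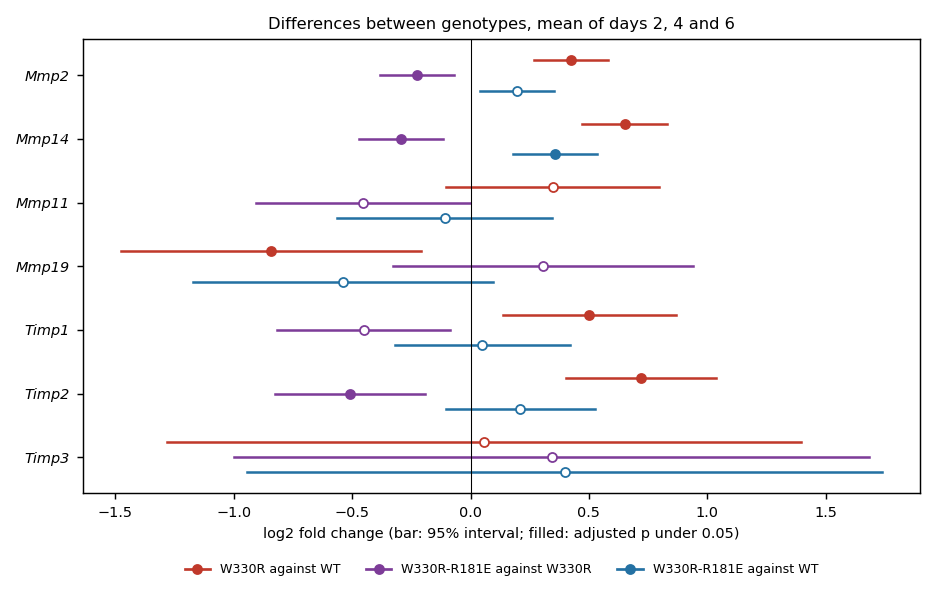
Log2 fold changes of 7 members (Mmp9 is left out for its low counts) between genotypes, averaged over days 2, 4 and 6, with 95% intervals as bars and filled points where the edgeR adjusted p was under 0.05. W330R against WT (red) is positive and filled for Mmp2, Mmp14, Timp1 and Timp2, and the intervals of Timp3 span from -1.28 to 1.74.

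The second question is what the added R181E substitution changes. Averaged over days 2 to 6, Mmp2, Mmp14 and Timp2 were lower in W330R-R181E than in W330R, which is 3 of the 8 members, and none was higher. Of all genes, 17.2% were called in this comparison, 9.36% lower and 7.87% higher. The median log2 fold change was -0.37 over the 8 members, -0.29 over the 7 without Mmp9 and 0.01 over all genes. The W330R libraries are the same ones that were set against WT, so that a high value in them gives a rise in the first comparison and a fall in this one.

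Timp2 in the double mutant was 924 and 665 CPM at day 2, 1367 and 1061 at day 4, and 1516 and 1642 at day 6. Both values were under both W330R values on each day, and the log2 fold change was -0.51 ± 0.15 (adjusted p = 0.0291). By that count 8.36% of all genes were lower and 6.94% higher on all 3 days. Mmp14 in the double mutant was 326 and 391 CPM at day 2, 457 and 473 at day 4, and 602 and 662 at day 6. It overlapped W330R at day 2 and lay below it at days 4 and 6 (log2 fold change -0.29 ± 0.08, adjusted p = 0.0262). Mmp2 in the double mutant was 239 and 205 CPM at day 2, 330.5 and 401 at day 4, and 519 and 529 at day 6 (log2 fold change -0.23 ± 0.07, adjusted p = 0.0461).

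These 3 calls depend on single libraries. That of Mmp2 was lost in 17 of the 22 refits without 1 library, the log2 fold change staying between -0.27 and -0.18, and was kept only without either library of WT day 2, replicate 1 of W330R day 2, replicate 1 of W330R-R181E day 2 or replicate 2 of W330R-R181E day 4. That of Mmp14 was lost without replicate 2 of W330R day 2, day 4 or day 6, replicate 1 of W330R-R181E day 2, either library of W330R-R181E day 4, or replicate 1 of W330R-R181E day 6 (-0.36 to -0.21). That of Timp2 was lost without replicate 2 of W330R day 2, either library of W330R day 4 or day 6, replicate 2 of W330R-R181E day 2 or day 4, or replicate 1 of W330R-R181E day 6 (-0.59 to -0.42). On single days none of the 8 members was called between the double mutant and W330R, where 2.67%, 1.91% and 1.5% of all genes were called on days 2, 4 and 6. At an unadjusted p under 0.05 the days held 1, 1 and 2 members, and DESeq2 made 1 call in all on single days.

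Timp1 and Mmp11 were not called between the double mutant and W330R, at -0.45 ± 0.17 (adjusted p = 0.0855) and -0.46 ± 0.21 (adjusted p = 0.162). Timp1 in the double mutant had 5.83 and 15.7 CPM at day 2, 13.9 and 14.8 at day 4, and 25.7 and 25.6 at day 6, and Mmp11 had 34.0 and 81.6, 34.4 and 26.6, and 46.8 and 33.3 CPM. For both genes the day 2 replicates were far apart. Without replicate 2 of day 2 both were called, Timp1 at -0.74 (adjusted p = 0.000444) and Mmp11 at -0.70 (adjusted p = 0.0185). Mmp19 in the double mutant was 14.5 and 37.8 CPM at day 2, 48.6 and 84.4 at day 4, and 31.7 and 85.8 at day 6, overlapping both other genotypes on each day (log2 fold change against W330R 0.31, 95% interval -0.33 to 0.94).

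Against WT, the double mutant was higher in Mmp14 alone among the 8 members, at a log2 fold change of 0.36 ± 0.08 (adjusted p = 0.0183), where 9.57% of all genes were called. Mmp14 was above both WT libraries on all 3 days, as were 3.79% of all genes, while 3.26% were below WT on all 3. The call was lost without replicate 2 of WT day 4 or of WT day 6, with values between 0.31 and 0.40 over all refits. The values for Mmp2, Timp2, Timp1 and Mmp19 were 0.20 (95% interval 0.04 to 0.35), 0.21 (-0.10 to 0.52), 0.05 (-0.32 to 0.42) and -0.54 (-1.17 to 0.09). With DESeq2 in place of edgeR the call of Mmp2 was made (0.19, adjusted p = 0.0333). No member was called on a single day, where 0%, 0% and 0.875% of all genes were. At an unadjusted p under 0.05 there were 1, 2 and 1 members on days 2, 4 and 6, and DESeq2 made 1 call in all on single days. This comparison shares the WT libraries with the first and the double mutant libraries with the second.

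Marker lists of several cell types also differed in level between the genotypes in these libraries. The adipocyte sum at day 4 was 4516 to 5839 CPM in WT, 1856 to 2287 in W330R and 2928 to 3101 in the double mutant. The fibroblast sum at day 4 was 6362 to 7974 CPM in WT, 8944 to 9493 in W330R and 7719 to 10507 in the double mutant, and at day 6 it was 7765 to 11876, 11124 to 13720.3 and 9275 to 12960.2 CPM. The osteoblast list, with 3 of its 6 genes past the filter, summed to 35.6 to 48.7 CPM in WT, 63.2 to 71.4 in W330R and 36.7 to 42.8 in the double mutant at day 4, and to 42.3 to 63.8, 84.9 to 85.5 and 53.7 to 59.2 CPM at day 6. The smooth muscle list, with all 6 genes past the filter, was at 194 to 296 CPM in WT, 394 to 515 in W330R and 318 to 619 in the double mutant at day 4. The endothelial list, with 3 of 6 past the filter, was at 4.52 to 7.54, 14.8 to 15.6 and 7.995 to 8.12 CPM at day 6. On those days the W330R sums of these 3 lists lay above those of WT, whereas the fibroblast sums of W330R and WT were apart at day 4 and overlapped at day 6. In bulk RNA, fewer cells of a type and less RNA per cell cannot be told apart. The part of these markers in the differences of Mmp2, Mmp14, Timp1, Timp2 and Mmp19 between genotypes was not tested.

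Over time, Mmp2, Mmp14, Timp1 and Timp2 fell from undifferentiated cells to day 2 in WT and W330R and rose from day 2 to day 6 in all 3 genotypes. Mmp9 passed the filter on low counts through its day 6 libraries alone and is left out of the counts over time, a choice made after its values were seen. From day 2 to day 6 in WT, 5 of the 7 other members tested were higher (Mmp2, Mmp14, Mmp19, Timp1 and Timp2) and none was lower, where 26.6% of all genes were called, 14.8% higher and 11.8% lower. In W330R 4 of the 7 were higher (the same without Mmp19), against 25% of all genes called. In the double mutant 4 of the 7 were higher (Mmp2, Mmp14, Timp1 and Timp2), against 23.2% of all genes. The median log2 fold change of the 7 members was 0.95, 1.11 and 1.14 in WT, W330R and the double mutant, and that of all genes was 0.02, 0.01 and 0.00.

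Timp1 rose by a log2 fold change of 1.09 ± 0.30 in WT, 1.13 ± 0.29 in W330R and 1.23 ± 0.30 in the double mutant (adjusted p = 0.0156, 0.0129 and 0.0103). Timp2 rose by 0.91, 1.11 and 0.99 (adjusted p = 0.0172, 0.00666 and 0.0139), and Mmp14 by 0.95, 0.87 and 0.82 (adjusted p = 0.000399, 0.000906 and 0.00172). Mmp2 rose by 0.68 ± 0.13 in WT, 0.83 ± 0.13 in W330R and 1.24 ± 0.13 in the double mutant (adjusted p = 0.0017, 0.000597 and 3.93e-05). Mmp19 rose by 1.57 ± 0.52 in WT (adjusted p = 0.0378), while its values of 1.20 in W330R and 1.14 in the double mutant did not pass (adjusted p = 0.105 and 0.128). Mmp11 had -0.23, 0.10 and -0.53, with no call. Of the means of days 2, 4 and 6, that of day 4 was lowest in WT, in W330R and in the double mutant. Timp3 had 1.41, 2.00 and 1.90 with standard errors of 1.10 to 1.12 and no call.

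Several of these rises rest on single libraries. In WT, Timp2 was not called without replicate 2 of day 2 or replicate 1 of day 6 (0.57 to 1.21 over all refits), Timp1 without replicate 1 of day 2 or of day 6 (0.90 to 1.37), and Mmp19 without either undifferentiated library, either library of day 2 or replicate 2 of day 6 (1.07 to 1.94). In W330R, Timp1 and Timp2 were not called without replicate 1 of day 2, nor was Timp1 without replicate 1 of day 6. In the double mutant, Timp2 was not called without replicate 2 of day 2 or of day 6 (0.77 to 1.25). The rises of Mmp2 and Mmp14 were called in all 3 genotypes whichever library was left out.

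**Figure D3:**
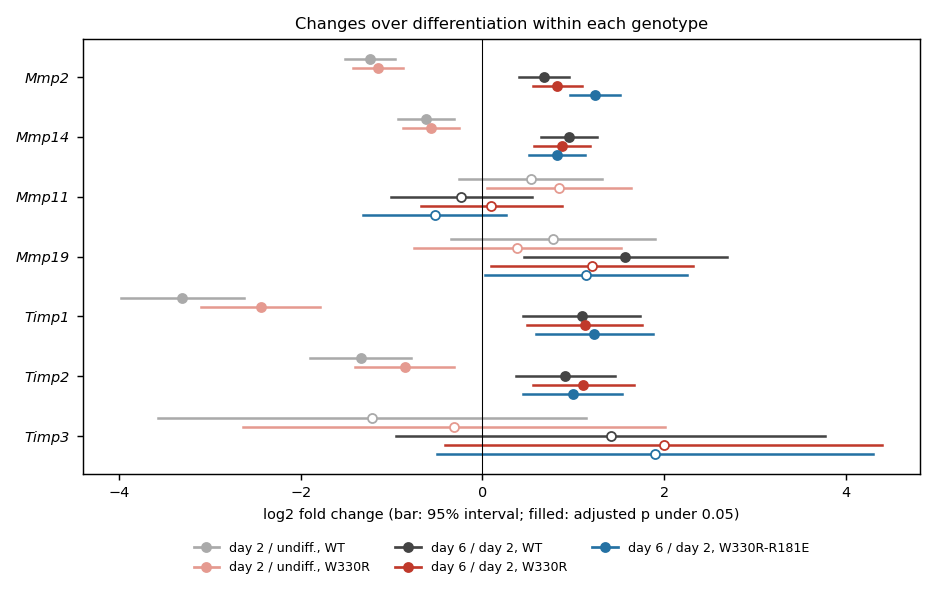
Log2 fold changes of 7 members (Mmp9 is left out for its low counts) from undifferentiated cells to day 2 (pale) and from day 2 to day 6 (dark) within each genotype, with 95% intervals as bars and filled points where the edgeR adjusted p was under 0.05. Mmp2, Mmp14, Timp1 and Timp2 fall in the first step and rise in the second in each genotype that has both, and Timp1 shows the largest fall at -3.30 in WT.

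From undifferentiated cells to day 2, Mmp2, Mmp14, Timp1 and Timp2 fell in WT and in W330R and no member rose, where 50.9% and 48.2% of all genes were called (24.4% and 23% lower). Timp1 fell most, from 112 and 117 to 9.89 and 13.2 CPM in WT and from 75.8 and 73.8 to 11.4 and 16.1 CPM in W330R (log2 fold change -3.30 ± 0.32 and -2.44 ± 0.31, adjusted p = 1.76e-06 and 2.27e-05). Mmp2 changed by -1.24 and -1.15, Timp2 by -1.34 and -0.86, and Mmp14 by -0.62 and -0.56 on the log2 scale. In W330R, Mmp14 and Timp2 lost the call without replicate 1 of day 2, and Timp2 also without replicate 2 of the undifferentiated cells. The fibroblast sum was 19325 to 20499 CPM before and 3087 to 3326 CPM after this step in WT, and 16504 to 16779 before and 3555 to 3991 after it in W330R. The adipocyte sum at day 2 was 2725 to 3137 CPM in WT and 1920.2 to 2435 CPM in W330R. The part of both marker lists in the fall of the MMP and TIMP genes was not tested.

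By day 6, Mmp14 had passed its undifferentiated level in both genotypes (534 and 504 against 419.5 and 406 CPM in WT, 777 and 834 against 651 and 646 CPM in W330R). Timp1 had not, with 25.2 and 24.3 against 112 and 117 CPM in WT. Mmp2 stayed below as well, at 404 and 398 against 592 and 588 CPM in WT. These levels of day 6 and of undifferentiated cells were set side by side without a test.

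Whether the changes over time differed between genotypes was tested with 4 interaction contrasts, and none of the 8 members was called in any of them. Of all genes, 0.0895% were called for day 6 minus day 2 between W330R and WT, 0.0413% between the double mutant and WT, 0% between the double mutant and W330R, and 1.87% for day 2 minus undifferentiated between W330R and WT. At an unadjusted p under 0.05 the 4 contrasts held 0, 1, 1 and 0 members, DESeq2 called none, and the 1 member was Mmp2 both times. Its rise from day 2 to day 6 exceeded that of WT by 0.56 in the double mutant (95% interval 0.18 to 0.95, adjusted p = 0.595). For Mmp14 the difference of the rise between W330R and WT was -0.08 (95% interval -0.51 to 0.36).

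Timp3, on chromosome 10, showed the widest spread between replicates. WT had 875 and 105 CPM at day 2, 1767 and 501 at day 4, and 2063 and 537 at day 6. W330R had 529.6 and 303 CPM at day 2, 1294 and 1047 at day 4, and 1879 and 1441 at day 6. The double mutant had 1026 and 53.3 CPM at day 2, 2298 and 738 at day 4, and 2650.3 and 1378 at day 6. Replicate 1 was the higher library in 9 of 9 conditions of days 2 to 6, by 1.24 to 19.3 times with a median of 3.11. In undifferentiated cells the replicates were close, at 1133 and 1146 CPM in WT and 510.3 and 522 in W330R. The genotypes did not overlap there, but the difference was not called (log2 fold change -1.14, 95% interval -3.49 to 1.21, adjusted p = 0.800). The fit shares 1 estimate of the spread of each gene over all conditions, those of days 2 to 6 included.

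**Figure D4:**
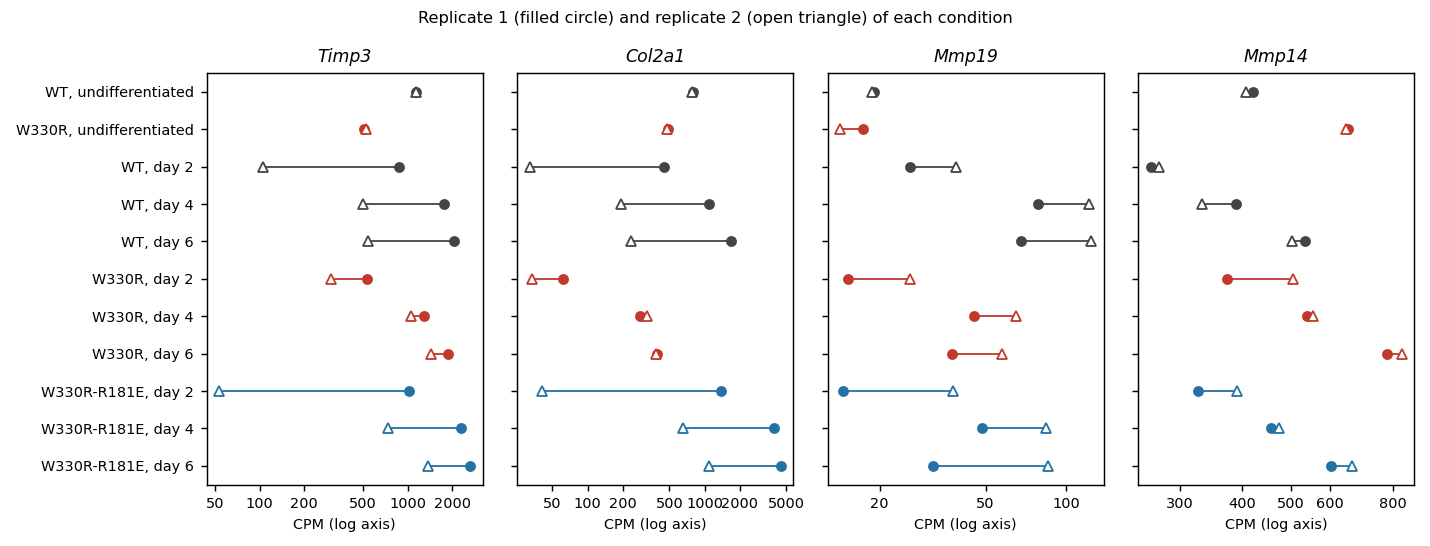
CPM of Timp3, the cartilage collagen gene Col2a1, Mmp19 and Mmp14 in replicate 1 (filled circles) and replicate 2 (open triangles) of each of the 11 conditions, on log axes, with a line joining the 2 libraries. For Timp3 replicate 1 lies to the right in all 9 conditions of days 2 to 6, for Mmp19 it lies to the left in all 9, and for Mmp14 it lies to the right in 2 of 9.

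Mmp19 was ordered the other way, replicate 1 being the lower library in 9 of 9 conditions (0.370 to 0.696 times replicate 2). The remaining members had no such order, replicate 1 being higher in 2 to 5 of 9 conditions. The chondrocyte markers (Sox9, Col2a1, Col10a1, Acan, Matn1, Col9a1) summed to more in replicate 1 in 7 of 9 conditions and Col2a1 was higher there in 8 of 9, by up to 33.4 times. Their sum was 218 to 2492 CPM in WT, 331 to 851 in W330R and 259.7 to 6692 in the double mutant over days 2 to 6. Their part in the Timp3 values was not tested. Timp3 was chosen for this comparison of replicates after its values were seen. In Timp3, 21.3% of the exon bases overlap the opposite-strand gene Syn3, which the table lists at 0.347 to 3.10 CPM.

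The genes whose log2 CPM followed the 3 members with the widest range over the 22 libraries were found by Pearson's r. For Timp1 they were Fmnl3 (0.973), Rin1 (0.969) and Asap1 (0.967), for Timp3 they included Gpc6 (0.912) and Chst3 (0.903), and for Mmp9 they were Pcdhb5 (0.871), Cml3 (0.841) and Lrpap1 (0.821). The libraries share stage and genotype, and the r values are descriptions.

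Other genes of extracellular proteolysis were taken from 7 lists with 108 genes, of which 83 were tested. In W330R against WT over days 2 to 6, 22 of the 83 were higher and 10 lower, 32 in all, with a median log2 fold change of 0.16 against 0.02 over all genes, beside the 29% called among all genes. Among 17 other MMP and TIMP genes, Mmp1a, Mmp1b, Mmp7 and Mmp10 were at 0 in every library, and 8 were tested, with 1 higher and 2 lower. Mmp16, another membrane type MMP, had 9.10 to 37.1 CPM in WT, 54.0 to 86.0 in W330R and 5.99 to 32.4 in the double mutant over days 2 to 6. It was higher in W330R than in WT (1.86 ± 0.28, adjusted p = 0.000351) and lower in W330R-R181E than in W330R (-1.92 ± 0.28, adjusted p = 0.000425). Timp4, the inhibitor found in fat and heart, had 8.60 to 14.7 CPM in WT, 1.46 to 4.02 in W330R and 38.1 to 39.0 in the double mutant at day 6. It was lower in W330R than in WT (-1.64 ± 0.52, adjusted p = 0.0294) and higher in W330R-R181E than in W330R (3.38 ± 0.53, adjusted p = 0.000700) and than in WT (1.74 ± 0.49, adjusted p = 0.0403).

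Plasminogen activation feeds into MMP activity, since plasmin can cut proMMPs. Of 7 genes tested from that list, 4 were higher and none was lower in W330R than in WT, where 14.3% of all genes were higher and 14.8% lower. In W330R-R181E 3 were lower than in W330R, where 9.36% of all genes were lower. Plat, tissue plasminogen activator, had 0.590 to 10.6 CPM over the 6 WT libraries of days 2 to 6, 4.34 to 37.8 in W330R and 1.09 to 16.3 in the double mutant (W330R against WT 2.11 ± 0.20, adjusted p = 1.68e-05). Plaur, the urokinase receptor, was called higher in W330R (adjusted p = 0.0334) on low values, with 0 CPM in both WT libraries of day 4 and 3.45 to 4.33 in W330R, so that its fitted fold change is no measure of size. From day 2 to day 6 in WT, Plau (urokinase) rose by 4.17 ± 0.75 on the log2 scale (adjusted p = 0.00126). It had 0.0984 to 1.06 CPM at day 2 and 5.35 to 13.7 CPM at day 6. The lowest of these values lies under 3 counts, so that this fold change is no measure of size either.

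The ADAM and ADAMTS proteases, relatives of the MMPs that TIMP3 also inhibits, gave 7 higher and 1 lower of 21 tested in W330R against WT. Of all genes, 14.3% were higher and 14.8% lower in that comparison. In the double mutant against W330R the list gave 1 higher and 9 lower, where 7.87% of all genes were higher and 9.36% lower. Adam12 was the lower one in W330R (-1.49 ± 0.17, adjusted p = 5.56e-05), and Adamts7 was among the higher ones (1.37 ± 0.23, adjusted p = 0.000818). Adamts16 and Adamts17 rose from day 2 to day 6 in WT (3.72 and 2.79). Both started from low values at day 2, of 0.197 to 0.302 and 0.453 to 0.639 CPM, so that the size of these rises is uncertain.

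Genes that control MMP activity gave 3 higher and 1 lower of 13 tested in W330R against WT. Of all genes, 29% were called in that comparison, 14.3% higher and 14.8% lower. Pcsk6, a proprotein convertase of the furin family, was lower (-1.19 ± 0.15, adjusted p = 0.000128), and Spock2 was higher at a low level (1.17 against 0.654 CPM on average, adjusted p = 0.0292). Over time in WT, Cav1, the coat protein of caveolae, rose (3.12 ± 0.53), while Lcn2, which binds MMP9, was at 232 to 1793 CPM at day 2 and 11.3 to 44.1 CPM at day 6 (adjusted p = 0.0394). Of 8 AP-1 subunits tested 1 was called between W330R and WT, Atf3 (-1.03 ± 0.37, adjusted p = 0.0499), and from day 2 to day 6 in WT Fosl2 fell by 0.88. Of 10 cathepsins and cystatins 3 were higher and 1 lower in W330R, with Ctsh at 0.79 and Ctsf at -0.80. From day 2 to day 6 in WT, Ctso rose 2.84 times and Ctsl fell 2.59 times.

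Matrix proteins, the substrates, gave 4 higher and 4 lower of 16 tested in W330R against WT, where 14.3% of all genes were higher and 14.8% lower. Eln, elastin, and Col4a2, a basement membrane collagen, were lower (-1.40 ± 0.43 and -1.26 ± 0.19, adjusted p = 0.0246 and 0.000333). From day 2 to day 6 in WT 8 of the 16 rose and 4 fell, where 14.8% of all genes were higher and 11.8% lower, among them Eln (5.49 ± 0.79) and Col3a1 (3.71 ± 0.29), which went up. In the same span 28 of the 83 genes rose and 11 fell, beside the 26.6% called among all genes, with a median log2 fold change of 0.48 against 0.02 over all genes. Mmp15 rose (1.59 ± 0.36) and Mmp17 fell (-2.75 ± 0.50) at 0.202 CPM on average by day 6.

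**Figure D5:**
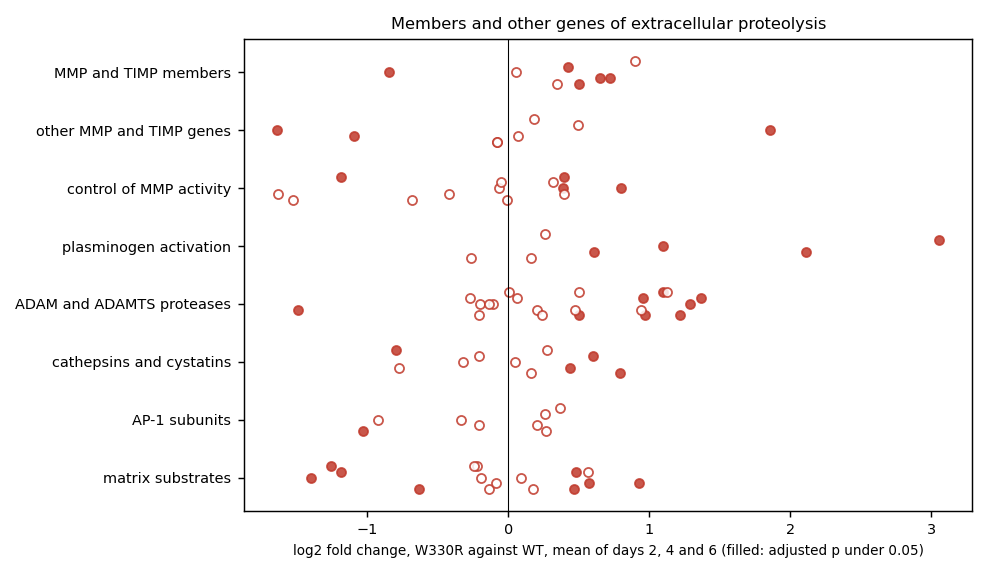
Log2 fold changes between W330R and WT, averaged over days 2, 4 and 6, for the 8 members tested and for 83 other genes in 7 lists, 1 point per gene, filled where the edgeR adjusted p was under 0.05. The plasminogen list has 4 filled points, all above 0, and the AP-1 list has 1, below 0, beside the 29% called among all genes.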

How the data were processed

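Total RNA of 22 libraries was sequenced. The authors deposited whole-number counts per gene symbol, without normalization. Their processing notes name kallisto, DESeq2 1.40 and GRCm39, whereas the settings and the use of strand are not given in the sources used here. Libraries were grouped by the labels' genotype and day. The members and all gene lists were chosen with earlier results of these data known.

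In R 4.3.3, the filterByExpr function (at least 10 counts, total at least 15) of edgeR 4.0.16 selected the genes, which were normalized by TMM and fitted with 1 quasi-likelihood model of 11 conditions. Contrasts compared genotypes on each day and over days 2 to 6, stages within a genotype, and stages between genotypes. Adjusted p values are Benjamini-Hochberg values over 14520 genes, called under 0.05, and the standard error is the log2 fold change divided by the square root of F. CPM used TMM library sizes, and log2 CPM a prior count of 2. Intervals of log2 fold changes rest on that standard error, which includes the spread between libraries, while the Mmp9 ratio intervals and the floors (3 counts) cover counting error only. Exon lengths, overlaps and shared words came from the GENCODE annotation of GRCm38, whose coordinates were not mixed with the counts.

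Besides the 10 members, up to 2 genes per list with the largest log2 fold change among those called in W330R against WT over days 2 to 6, and up to 2 in day 6 against day 2 of WT, were named. For the 3 members with the widest range, the 3 genes with the highest Pearson r and a mean log2 CPM of at least 1 were named. Cell type markers were used for 9 cell types. The alternatives were DESeq2 1.42.0, RLE normalization, no filter, the replicate number as a block, a fit of each contrast's own conditions, and leaving each library out. The fit was tested on simulated counts. Values of some genes that the rule for named genes picks are not reported here.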

Additional observations from a re-analysis of the deposited data

How the results depend on the processing

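Directions of called members held under every alternative. With DESeq2, the 5 calls between W330R and WT over days 2 to 6 were again 5, and those between W330R-R181E and WT became 2. The calls on single days became 8 for W330R against WT, 1 for W330R-R181E against W330R and 1 for W330R-R181E against WT. With RLE normalization, 2 members were called between W330R-R181E and W330R over days 2 to 6. Of all genes, 2493 were called there with RLE and 2501 in the main fit. Without the filter on low counts, the calls became 1 for W330R-R181E against W330R over days 2 to 6, 0 in undifferentiated cells and 3 on single days for W330R against WT. With only the conditions of the contrast in the fit, they became 1 for W330R-R181E against W330R, 0 for W330R-R181E against WT, 6 in undifferentiated cells, 0 on single days for W330R against WT, and 0 for day 6 against day 2 in WT and 0 in W330R-R181E, where 2 libraries are set against 2. The labels do not say what the replicate numbers stand for. The departures from the mean of the condition, compared between libraries with the same number, correlated at -0.0213 to 0.534 over the 36 pairs of conditions of days 2 to 6, with 35 above 0 and 27 over 0.1, and at -0.0665 to 0.0298 over the 19 pairs with undifferentiated cells. Libraries of days 2 to 6 with the same number thus shared part of these departures, but not every pair passed 0.1, and the block was kept as an alternative. The fit without the block treats these libraries as independent. With the replicate block, 5 members were called between W330R and WT over days 2 to 6, 2 between W330R-R181E and WT, 9 on single days for W330R against WT, 1 on single days for W330R-R181E against W330R, and 6 for day 6 against day 2 in W330R-R181E. With the block, 5011 of all genes were called between W330R and WT over days 2 to 6, and 2338 between W330R-R181E and WT. For day 6 against day 2 in W330R-R181E, 4312 genes were called with the block and 3369 without it. The fits of single contrasts hold fewer libraries and do not share the spread of the other conditions. The cause of these changes was not tested. Calls over all genes were not counted for single days under the alternatives. Nor were they counted without the filter, in fits of single contrasts or with a library left out.

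Counts over time include Mmp9. Leaving out each library in turn gave 3 to 5 calls for W330R against WT over days 2 to 6, 0 to 3 for W330R-R181E against W330R, 0 to 1 for W330R-R181E against WT and 0 to 1 in undifferentiated cells. It gave 3 to 6 calls for day 6 against day 2 in WT, 2 to 5 in W330R and 3 to 6 in W330R-R181E, and 4 to 4 and 2 to 5 for day 2 against undifferentiated cells in WT and W330R. On single days there were 2 to 6 calls for W330R against WT and 0 to 2 for W330R-R181E against W330R. Among values that were not called, the sign turned when a library was left out for Mmp9 (-0.27 to 1.77) and Timp3 (-0.23 to 0.80) in W330R against WT, for Mmp9 (-1.71 to 0.34) and Timp3 (-0.77 to 0.66) in W330R-R181E against W330R, and for Mmp9 (-0.81 to 0.94), Mmp11 (-0.367 to 0.0596), Timp1 (-0.25 to 0.22) and Timp3 (-0.72 to 1.14) in W330R-R181E against WT. With 2 libraries per condition, differences of the size of the Timp3 spread were not detectable, and Mmp3 and Mmp13 lie under what the depth can show.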

Other observations

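The marker lists of other cell types differed widely in their sums. The chondrocyte list was at 1132 to 1156 CPM in undifferentiated WT cells and at 1943 to 6692 CPM in W330R-R181E at day 6. The epithelial list (Epcam, Cdh1, Krt8, Krt18, Krt5, Krt14) summed to 0.197 to 5.67 CPM, with Epcam at 0 in several conditions. The endothelial list summed to 40.9 to 42.4 CPM in undifferentiated WT cells and 1.57 to 2.27 CPM in WT at day 2. The macrophage list, with 5 of its 6 genes in the table, reached 68.9 to 113 CPM in WT at day 2 and was 16.5 to 17.8 CPM in undifferentiated WT cells. The osteoblast list was at 32.6 to 102 CPM over all conditions. The smooth muscle list summed to 1287 to 1289 CPM in undifferentiated WT cells, 55.2 to 74.2 CPM in WT at day 2, and 285 to 597 CPM in WT and 708 to 715 CPM in W330R at day 6.

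Dnmt3a itself was at 344.5 to 346 CPM in undifferentiated WT cells and 316 to 326 CPM in undifferentiated W330R cells. At day 2 it was at 175 to 322 CPM in WT, 88.4 to 142 CPM in W330R and 77.3 to 148 CPM in W330R-R181E. Both mutants thus lay below both WT libraries at day 2. At day 4 it was at 105 to 160 CPM in WT, 87.4 to 137 CPM in W330R and 68.5 to 121 CPM in W330R-R181E. At day 6 it was at 111 to 149 CPM in WT, 122 to 139.7 CPM in W330R and 72.8 to 121 CPM in W330R-R181E. The counts do not separate the alleles, and these values were not tested.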
